A study of Fragaria x ananassa with 21 samples.

Results

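Receptacles of strawberry fruit injected with nordihydroguaiaretic acid (NDGA) and harvested on day 8, the library NDGA8, were set against receptacles injected with water and harvested on day 5, the library CK5. The comparison asks whether fruit under NDGA on day 8 had the transcript levels of younger control fruit, and which unigenes still differed. Its members were the unigenes with at least 1 RPKM (reads scaled to the length of the unigene and to the size of the library) in one of the 2 libraries, a blank cell counting as 0, and 48810 of the 109953 assembled unigenes met this rule. They came from 23642 Trinity components, groups of related transcripts within which reads are shared.

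The fruits were octaploid Fragaria x ananassa 'Toyonoka', all of one age at injection, which was set as day 0, and each received 100 µL into the receptacle core. NDGA8 and NDGA5 received NDGA at 100 µM, ABA5 and ABA8 received abscisic acid (ABA) at 1 µM, and CK0, CK5 and CK8 received distilled water, with the number giving the harvest day. The groups follow the sample labels, since the series' design text describes ABA8 as a day 5 harvest and NDGA5 as water-treated. Achenes were removed before freezing, and RNA of 3 batches of 10 fruits was pooled into 1 library per condition. Each comparison therefore sets 1 library against 1 library, and variation among fruits could not be estimated or tested. NDGA8 held 53653395 reads and CK5 61805561, and the other 5 libraries between 57773971 and 89152239. Treatment and age differ together between NDGA8 and CK5, so their parts cannot be told apart. In a bulk library, fewer cells of a type and less RNA per cell cannot be told apart either. No unigene described in the tables matched the seed storage, oleosin or late embryogenesis words fixed as achene markers, so carry-over of achenes was not tested.

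Strawberry is a non-climacteric fruit in which ABA promotes ripening, and ABA itself is cut from carotenoids by 9-cis-epoxycarotenoid dioxygenase, the step that NDGA blocks. NDGA is also known to inhibit lipoxygenases. The red colour comes from anthocyanins. They are built from phenylalanine through the phenylpropanoid enzymes PAL, C4H and 4CL, then the early flavonoid enzymes CHS, CHI and F3H, and last DFR, ANS and a glucosyltransferase (GT). In unripe fruit the same route feeds proanthocyanidins through ANR and LAR.

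The study designed qRT-PCR primers for some of the listed unigenes. Shown here are those that the authors assign to a CHS and a C4H unigene higher in NDGA8 and to a PSY unigene that was lower. The other primer pairs belong to enzymes of which no unigene was called, and they are not shown. Only the CHS forward primer was found in the part of the unigene sequence given, so the other assignments rest on the authors' table. The primers are shown in lower case, 5′ to 3′, with no part marked.
CHS comp115866_c0_seq11 forward: cttcaagttcaagcagccaca
CHS comp115866_c0_seq11 reverse: gaaggagtggggtgttctgtt
C4H comp106234_c0_seq1 forward: ttgtgaagttcgggttctgtga
C4H comp106234_c0_seq1 reverse: caatcgagtggggaatagcc
PSY comp109519_c0_seq12 forward: tgccacttgtctgtcactttcc
PSY comp109519_c0_seq12 reverse: gcccttggaatcgctaatca

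NDGA8 was near CK5 but not equal to it. A unigene counted as higher or lower once its RPKM, with 0.1 added in both libraries, differed 1.5-fold or more. By this size rule 8839 unigenes (18.1% of the members) were higher in NDGA8 and 4775 (9.78%) were lower, 27.9% together, and 35196 were not called. The median log2 ratio was 0.11, and the middle 50% of the members lay between −0.18 and 0.43. Rescaling NDGA8 by the median ratio of unigenes with at least 1 RPKM in both libraries, a shift of 0.08 on the log2 scale, left 7481 higher (15.3%) and 5628 lower (11.5%). Chi-square tests of read counts, which set library against library and say nothing of the conditions, called 18102 higher (37.1%) and 10091 lower (20.7%) at a Benjamini-Hochberg adjusted p of 0.05.

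The calls were most frequent at low levels, where, for unigenes of the same length, a ratio rests on fewer reads. Members were also admitted and binned by the higher of the 2 compared levels, which favours unequal pairs. In both libraries 40281 of the 48810 members had at least 1 RPKM. How far this rule raised the share of calls at low levels was not tested. Of the 12821 members whose higher level was between 1 and 2 RPKM, 48.8% were called, with 4148 higher and 2109 lower in NDGA8. Between 2 and 5 RPKM 2840 were higher and 1210 lower, and between 5 and 10 RPKM 938 were higher and 545 lower. Between 10 and 50 RPKM 12.9% of 10804 were called, with 713 higher and 680 lower. Among the 2490 members of 50 RPKM or more, 200 were higher and 231 lower. The excess of higher calls was thus seen below 10 RPKM, and it was small or turned round above. At 4-fold 1056 unigenes were higher and 645 lower, and at 16-fold 116 were higher and 58 lower.

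**Figure D1:**
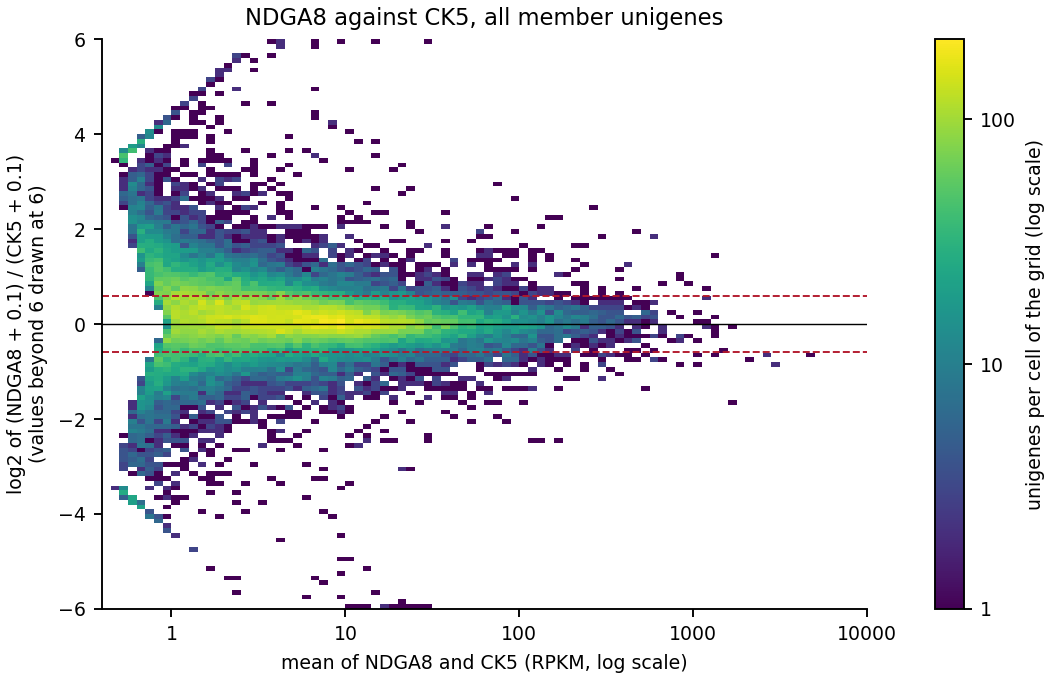
Each cell of the grid counts member unigenes by the mean of NDGA8 and CK5 (x axis, RPKM, log scale) and by the log2 ratio of NDGA8 over CK5 (y axis). The dashed lines mark 1.5-fold, and the cloud narrows with level, 48.8% of members being called between 1 and 2 RPKM and 12.9% between 10 and 50 RPKM.

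Of the 6 other libraries, CK5 gave the lowest share of called unigenes against NDGA8. The share was 27.9% for CK5, 28.4% for NDGA5, 36% for CK8, 38.2% for ABA5, 42.3% for CK0 and 54.6% for ABA8. After each library was rescaled by its median ratio, CK5 (26.9%) and NDGA5 (27.6%) remained the lowest and ABA8 (47.8%) the highest. CK5 and NDGA5 differed by less than 1 percentage point, and with 1 library each their order cannot be tested. The rank correlation of NDGA8 across unigenes, which are not independent replicates, was 0.946 with CK5 and 0.859 with ABA8, over unigenes with at least 1 RPKM in both libraries of each pair. For 30513 members (62.5%) the NDGA8 level lay between the lowest and the highest of the 3 control libraries. It was at least 1.5-fold above all 3 for 1816 (3.72%) and at least 1.5-fold below all 3 for 542 (1.11%).

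**Figure D2:**
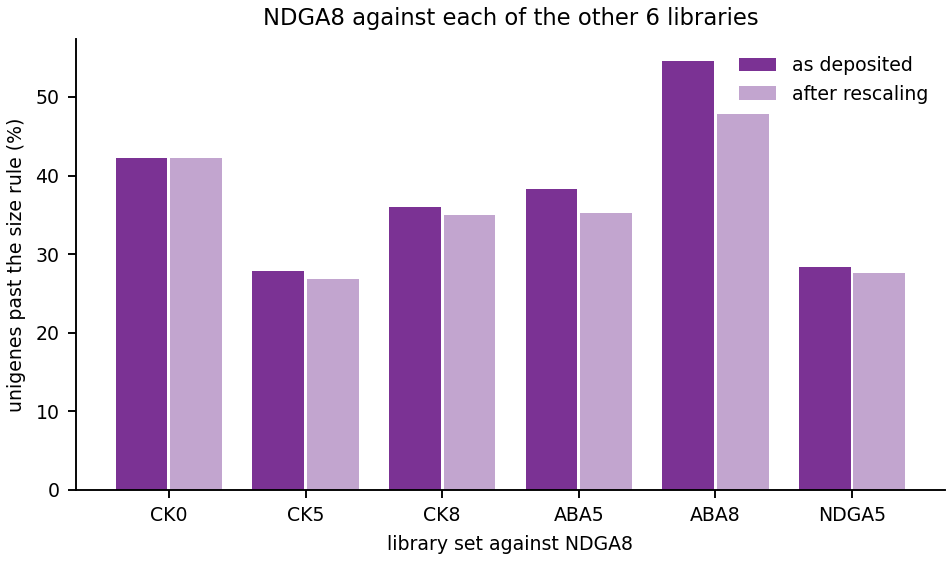
Bars give the share of unigenes past the size rule (y axis, %) when NDGA8 was set against each of the other libraries (x axis), as deposited and after rescaling by the median ratio. CK5 (27.9%) and NDGA5 (28.4%) stand lowest and ABA8 (54.6%) highest.

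The authors' lists of pathway unigenes, which they drew from these libraries, held 336 unigenes, and 252 of them were members. Among these 45 were higher (17.9%) and 29 lower (11.5%) in NDGA8, close to the 18.1% and 9.78% of all members, with a median log2 ratio of 0.17, against 0.11 over all members, and after rescaling the balance turned to 35 higher and 38 lower. The lists did not move together. CHS, CHI and 5 of 9 unigenes listed as F3H were higher in NDGA8, while PAL, 4CL and phytoene synthase (PSY) had more unigenes lower than higher.

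**Figure D3:**
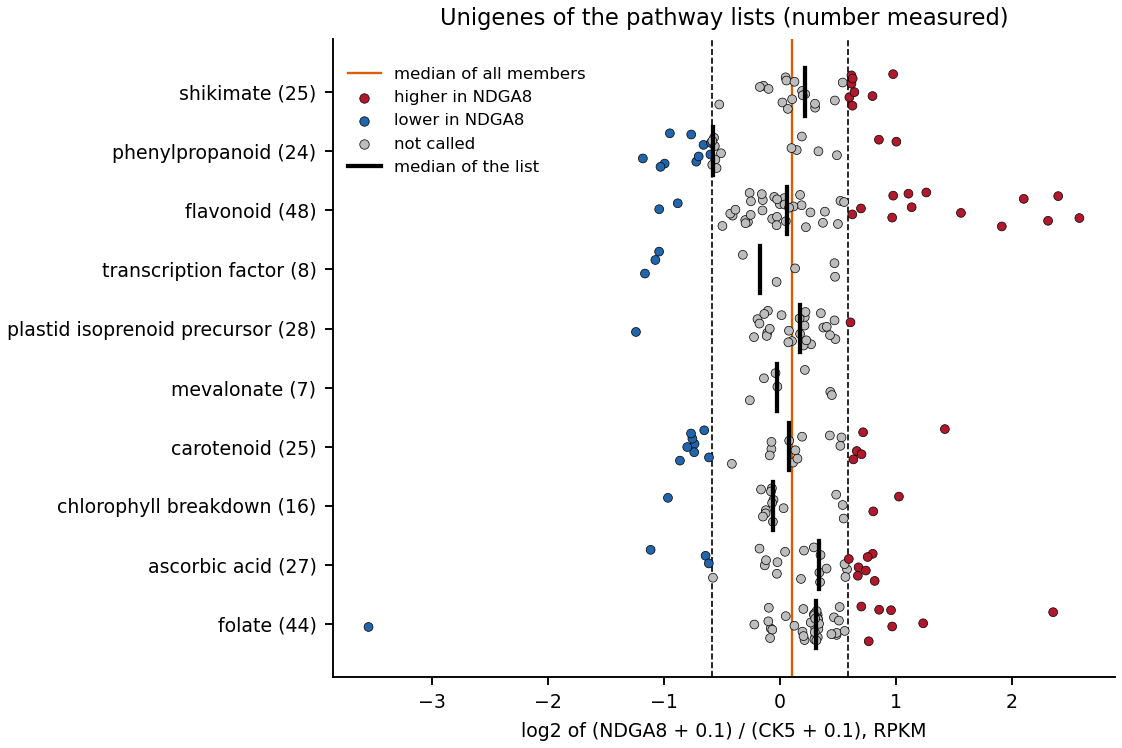
Each point is a listed unigene at its log2 ratio of NDGA8 over CK5 (x axis), by pathway list (y axis, number measured in brackets). Black bars are list medians, the orange line is the median of all members (0.11) and dashed lines mark 1.5-fold. The phenylpropanoid median lies at −0.58, and the flavonoid list carries the points farthest to the right.

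CHS, which commits 4-coumaroyl-CoA to flavonoids, had the largest rises of the flavonoid list. The unigene comp115866_c0_seq11, identified by the primers above, had 26.7 RPKM in NDGA8 (2321 reads), against 4.98 RPKM in CK5 (499 reads). It was thus 5.36-fold higher, with an exact (Clopper-Pearson) 95% counting interval of 4.86 to 5.91. Such intervals cover the counting of reads only, not differences between fruits, and reads are not independent molecules. In the control course CHS stood at 32.0 RPKM in CK0, 4.98 in CK5 and 110 in CK8, so CK5 was its low point and NDGA8 was near the level of day 0. The other libraries had 6.73 RPKM (NDGA5), 26.3 (ABA5) and 145 (ABA8). The other CHS unigene, comp115866_c0_seq9, was 6.11-fold higher (5.18 to 7.25).

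CHI, which closes the flavanone ring, was called higher in all 4 of its measured unigenes. CHI comp105294_c1_seq1 had 17.8 RPKM in NDGA8 and 3.498 RPKM in CK5, a 5.08-fold rise (4.49 to 5.75). This unigene was low in each day 5 library, with 3.498 RPKM in CK5, 5.85 in ABA5 and 6.31 in NDGA5, and higher in CK8 (24.4), ABA8 (26.3) and CK0 (14.3). The best expressed one, comp100721_c0_seq1, had 56.7 RPKM in NDGA8 and 36.8 RPKM in CK5. Its 1.54-fold rise (1.46 to 1.63) was no longer called after rescaling, and its 246.0 RPKM in CK8 lay far above both. The remaining 2, of component comp102747, were at 1.66 RPKM in NDGA8 and at 0.80 RPKM in CK5.

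F3H, which hydroxylates flavanones, had 5 of 9 measured unigenes higher and none lower, and by component 4 of 7 higher. F3H comp105372_c0_seq9, whose nr match is the strawberry flavanone 3-hydroxylase, had 27.2 RPKM in NDGA8 and 12.6 RPKM in CK5 and was 2.16-fold higher (2.02 to 2.31). The level in NDGA8 was again close to CK0, with 28.5 RPKM in CK0 and 75.6 RPKM in CK8. F3H comp96824_c0_seq2 had 9.58 RPKM in NDGA8 and 2.47 RPKM in CK5 (3.87-fold, 2.93 to 5.18). F3H comp100589_c0_seq2, which the authors also list as ANS, had 10.8 RPKM in NDGA8 and 4.47 RPKM in CK5 (2.43-fold, 2.16 to 2.73). Both match flavonol synthase/flavanone 3-hydroxylase-like proteins of Fragaria vesca. A further listed F3H unigene that was called, comp97406_c0_seq2 (2.71 RPKM in NDGA8 and 0.85 RPKM in CK5), matches a gibberellin 20-oxidase, so its place in the flavonoid list is uncertain.

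ANR, which turns anthocyanidins into the building blocks of proanthocyanidins, was split. ANR comp103703_c0_seq1, whose nr match is a strawberry anthocyanidin reductase, had 36.5 RPKM in NDGA8 and 8.43 RPKM in CK5, a 4.33-fold rise (3.98 to 4.72). Its other levels were 37.2 RPKM in CK0, 10.4 in CK8, 9.67 in NDGA5, 6.14 in ABA5 and 4.79 in ABA8. Only CK0 and NDGA8 were above 11 RPKM. The ANR-like unigene comp101618_c0_seq3 went the other way, with 3.77 RPKM in NDGA8 and 7.88 RPKM in CK5 (2.09-fold lower, 1.82 to 2.40). LAR comp101416_c0_seq1, another enzyme of proanthocyanidin synthesis, was not called, at 5.34 RPKM in NDGA8 and 4.11 RPKM in CK5.

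The best expressed unigenes of the late anthocyanin enzymes DFR and ANS were not called. None of the 11 measured unigenes listed as DFR, which reduces dihydroflavonols, was called, and the best expressed one, comp112886_c1_seq3, had 164 RPKM in NDGA8 and 195 RPKM in CK5. ANS comp101059_c0_seq11, which forms anthocyanidins, had 105 RPKM in NDGA8 and 73.0 RPKM in CK5, 1.43-fold and short of the rule, although CK0 (21.7) and CK8 (33.2) were both lower. Of 18 GT unigenes 1 was higher and 1 lower. The lower one was the best expressed, comp108011_c0_seq2, a putative glucosyltransferase, with 67.7 RPKM in NDGA8 and 125 RPKM in CK5 (1.84-fold lower, 1.79 to 1.90). In all, 13 of the 48 flavonoid unigenes were higher (27.1%) and 2 lower (4.17%), against 18.1% and 9.78% of all members, with a median log2 ratio of 0.06. By component 9 of 28 were higher and 2 lower.

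**Figure D4:**
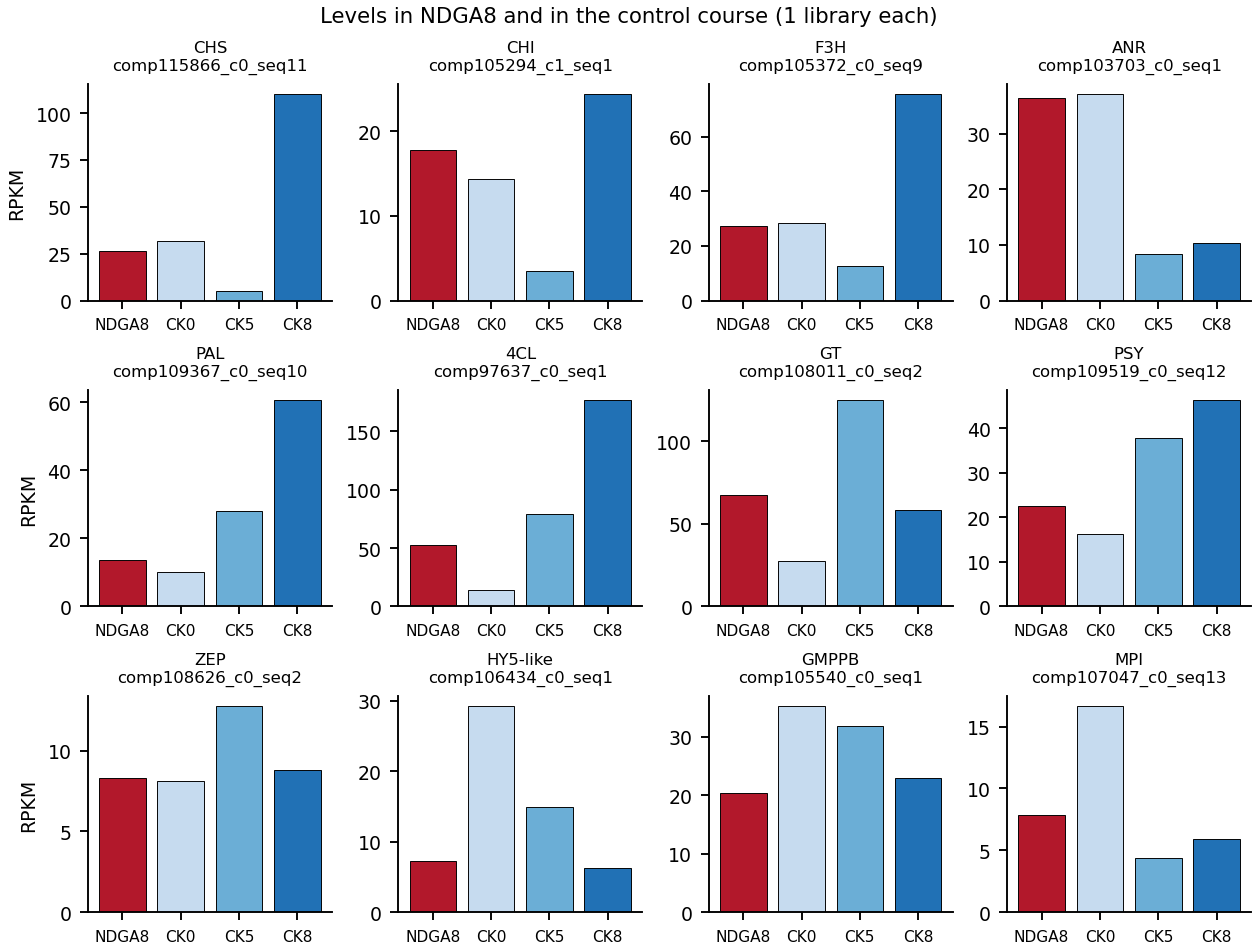
Bars give the level (y axis, RPKM, from 0, with a scale of its own in each panel) of 12 unigenes in NDGA8 and in the control course CK0, CK5 and CK8 (x axis), 1 library each. CHS, CHI, F3H and ANR stand above CK5 in NDGA8, near CK0, while PAL, 4CL, GT, PSY and ZEP stand below CK5.

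In the phenylpropanoid list, upstream of CHS, more unigenes were lower than higher. Of the 24 phenylpropanoid unigenes 2 were higher and 10 lower in NDGA8 (8.33% and 41.7%, against 18.1% and 9.78% of all members), with a median log2 ratio of −0.58. After rescaling 2 were higher and 17 lower, since 7 more lay just inside 1.5-fold. By component, 2 of 16 were higher and 8 lower, so more components were lower than higher too.

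PAL, which deaminates phenylalanine, was called lower in 2 of 4 unigenes. PAL comp109367_c0_seq10 had 13.7 RPKM in NDGA8 and 28.0 RPKM in CK5 (2.05-fold lower, 1.77 to 2.39). Its level was 9.98 RPKM in CK0 and 60.7 RPKM in CK8, so NDGA8 lay between day 0 and day 5 of the control. PAL comp109063_c0_seq1 had 14.2 RPKM in NDGA8 and 22.5 RPKM in CK5 and was 1.58-fold lower (1.503 to 1.67). Another PAL unigene, comp105622_c0_seq2, had 3.95 RPKM in NDGA8 and 2.78 RPKM in CK5 and was not called.

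Of the 19 unigenes listed as 4CL, the ligase that forms coumaroyl-CoA, 8 were lower and 1 higher. The list is the authors' own, and enzyme activity was not tested. The unigenes of comp97637 and comp99227, which match the same 4CL-like 7 protein of Fragaria vesca, lay at the edge of the rule. Here 4CL comp97637_c0_seq1 had 52.6 RPKM in NDGA8 and 79.6 RPKM in CK5 (1.51-fold lower, 1.47 to 1.56) and was called. Just outside was comp97637_c0_seq3, with 61.8 RPKM in NDGA8 and 92.7 RPKM in CK5, 1.501-fold lower (1.46 to 1.54), because the added 0.1 RPKM brought it under the threshold. In the control course comp97637_c0_seq3 stood at 16.3, 92.7 and 208 RPKM on days 0, 5 and 8. The 4CL 1-like unigene comp106520_c0_seq1 had 6.05 RPKM in NDGA8 and 12.2 RPKM in CK5, 2.01-fold lower (1.83 to 2.21). Unlike comp97637, it was highest in NDGA5 (13.9) and CK0 (13.1) and was at 8.50 RPKM in CK8.

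C4H, the hydroxylase between PAL and 4CL, went against both, its 1 measured unigene being higher. C4H comp106234_c0_seq1 had 4.66 RPKM in NDGA8 (432 reads) and 2.28 RPKM in CK5 (243 reads), a 2.05-fold rise (1.75 to 2.41). The other libraries held between 4.11 RPKM (ABA5) and 7.46 RPKM (ABA8), so CK5 was the lowest of the 7. Of the 4CL unigenes, comp113055_c0_seq3, a 4CL 2-like protein, was higher, with 2.70 RPKM in NDGA8 and 1.45 RPKM in CK5 (1.86-fold, 1.56 to 2.22).

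Among the 8 transcription factor unigenes 3 were lower (37.5%, against 9.78% of all members) and none higher (18.1% of all members). All 3 match the same HY5-like protein. By component 2 of 6 were lower, since 2 of the 3 unigenes belong to comp106434 and share reads. In Arabidopsis HY5 is a bZIP factor that promotes light responses, flavonoid genes among them. The HY5-like unigene comp106434_c0_seq1 had 7.23 RPKM in NDGA8 and 15.0 RPKM in CK5, a 2.08-fold fall (1.87 to 2.31). It stood at 29.3 RPKM in CK0 and 6.28 RPKM in CK8, and at 19.4 RPKM in NDGA5, 18.4 in ABA5 and 22.7 in ABA8. NDGA8 thus resembled CK8 in this unigene, not CK5. The HY5-like unigene comp107695_c2_seq7 was 2.12-fold lower (1.82 to 2.48), with 6.96 RPKM in NDGA8 and 14.8 RPKM in CK5.

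The 2 factors nearest to anthocyanin control did not differ by the rule. The R2R3 MYB unigene comp113395_c0_seq6, chosen after its values were seen, had 8.28 RPKM in NDGA8 (583 reads) and 8.46 RPKM in CK5 (686 reads). The interval of their 1.02-fold difference, which favoured CK5, was 0.91 to 1.14. This MYB stood at 0.17 RPKM in CK0 and 119 RPKM in CK8. TT8-like comp118358_c0_seq4, a bHLH factor, had 14.4 RPKM in NDGA8 and 18.0 RPKM in CK5 and was not called.

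In the carotenoid pathway, which leads to ABA, 5 of 25 unigenes were higher (20.0%) and 8 lower (32.0%) in NDGA8, against 18.1% and 9.78% of all members, and by component 3 of 13 were higher and 3 lower. PSY, which makes phytoene and opens the pathway, supplied 7 of the 8. All 7 measured PSY unigenes were lower, by 1.58-fold (comp109519_c0_seq6) to 1.82-fold (comp110189_c0_seq11). They come from 2 components that match the same strawberry phytoene synthase, so they are not 7 independent observations. PSY comp109519_c0_seq12, the unigene of the primers, had 22.7 RPKM in NDGA8 and 37.9 RPKM in CK5, a 1.67-fold fall (1.59 to 1.75). Its control course was 16.4, 37.9 and 46.3 RPKM on days 0, 5 and 8, and NDGA5 had 19.5 RPKM. Like PAL, NDGA8 stood between CK0 and CK5.

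Of the enzymes from phytoene to β-carotene, 1 unigene was called. PDS comp110404_c0_seq12, which desaturates phytoene, had 19.3 RPKM in NDGA8 and 20.4 RPKM in CK5, and neither of its 2 unigenes was called. ZDS comp117631_c0_seq4, the next desaturase, had 17.1 RPKM in NDGA8 and 22.8 RPKM in CK5. LCYB comp105524_c0_seq4, which cyclises lycopene to β-carotene, had 9.62 RPKM in NDGA8 and 9.11 RPKM in CK5. None of the 3 unigenes of Z-ISO, an isomerase between PDS and ZDS, was called (log2 ratios of −0.08 to 0.43). Of 6 unigenes of CRTISO, the isomerase after ZDS, 1 was higher, with a median log2 ratio of 0.35. CRTISO comp104685_c0_seq4 had 2.91 RPKM in NDGA8 and 1.84 RPKM in CK5 (1.58-fold, 1.26 to 1.99), and was not called after rescaling.

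The xanthophyll cycle differed in both directions. ZEP comp108626_c0_seq2, which epoxidises zeaxanthin on the way to ABA, had 8.30 RPKM in NDGA8 and 12.8 RPKM in CK5, a 1.54-fold fall (1.42 to 1.66). VDE comp100864_c0_seq2, which catalyses the reverse reaction, had 1.44 RPKM in NDGA8 (50 reads) and 0.47 RPKM in CK5 (19 reads), a 3.03-fold rise with a wide interval (1.76 to 5.44). VDE was at 1.15 RPKM in CK0 and 0.34 RPKM in CK8. Both unigenes of LCYE, the cyclase of the branch to lutein, were higher as well, with 1.21 RPKM in NDGA8 and 0.70 RPKM in CK5 for comp105236_c0_seq1 (1.73-fold, 1.32 to 2.29). At these levels a pseudocount of 1 RPKM ends the ZEP and LCYE calls.

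Few unigenes of the routes to carotenoid precursors were called. Of 28 unigenes of the plastid isoprenoid route 1 was higher and 1 lower (3.57% each), against 18.1% and 9.78% of all members. None of 7 mevalonate unigenes was called, too few to set against those shares. IPI comp106476_c0_seq1, which isomerises isopentenyl diphosphate, had 34.7 RPKM in NDGA8 and 29.8 RPKM in CK5. The only lower unigene, comp111389_c1_seq1 of the CMS list, rested on 12 reads in NDGA8 and 36 in CK5.

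In the shikimate pathway, which supplies phenylalanine, 8 of 25 unigenes were higher (32.0%, against 18.1% of all members) and none lower, with a median log2 ratio of 0.22. This count depends on the scaling: after rescaling 2 were higher and 1 lower. Of the 8, 5 were unigenes of comp112830, a low chorismate synthase (CS) transcript at 3.23 RPKM in NDGA8 and 2.07 RPKM in CK5 in its best expressed form, comp112830_c0_seq27, and none of the 5 was called after rescaling. The main CS unigene, comp107579_c0_seq1, had 19.3 RPKM in NDGA8 and 27.8 RPKM in CK5, short of the rule as deposited. The calls that remained after rescaling were 2 unigenes of comp106693 listed as shikimate kinase (SK), such as comp106693_c0_seq13 with 6.01 RPKM in NDGA8 and 3.42 RPKM in CK5 (1.76-fold, 1.58 to 1.95). Their nr match is a probable inactive shikimate kinase-like protein. The unigene matching shikimate kinase 1, comp107612_c1_seq2, was not called, at 7.60 RPKM in NDGA8 and 6.65 RPKM in CK5. The enzyme before chorismate synthase, EPSPS (comp113558_c0_seq1), had 21.9 RPKM in NDGA8 and 20.9 RPKM in CK5.

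The ascorbic acid list had 7 of 27 unigenes higher (25.9%) and 3 lower (11.1%), against 18.1% and 9.78% of all members, with a median log2 ratio of 0.34. MPI, which brings sugar phosphates to the mannose branch, held 5 of the higher ones, all from component comp107047. MPI comp107047_c0_seq13 had 7.86 RPKM in NDGA8 and 4.42 RPKM in CK5, a 1.78-fold rise (1.60 to 1.98), with 16.7 RPKM in CK0 and 5.89 in CK8. Another MPI transcript, comp97873_c0_seq1, was 2.28-fold lower (1.69 to 3.11), with 1.03 RPKM in NDGA8 and 2.34 RPKM in CK5. GMPPB, which forms GDP-mannose, was split between components too. GMPPB comp105540_c0_seq1 had 20.4 RPKM in NDGA8 and 31.9 RPKM in CK5 (1.56-fold lower, 1.48 to 1.66), while GMPPB comp109042_c0_seq11 had 17.5 RPKM in NDGA8 and 10.4 RPKM in CK5 (1.68-fold higher, 1.59 to 1.77). By component the list had 2 of 17 higher and 3 lower.

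No other enzyme of the list had a called unigene besides those of MPI and GMPPB. GME comp105706_c0_seq1, which epimerises GDP-mannose, had 85.6 RPKM in NDGA8 and 58.2 RPKM in CK5 (1.47-fold, 1.42 to 1.52). GDH comp104149_c0_seq2, which oxidises L-galactose, had 18.0 RPKM in NDGA8 and 12.1 RPKM in CK5 (1.496-fold, 1.38 to 1.62). GGP, the phosphorylase between GME and GDH, had log2 ratios of −0.18, −0.02 and 0.35 in its 3 unigenes, and the sugar phosphatase unigene was at −0.13. GLDH comp112527_c0_seq3, which makes ascorbate, had 13.5 RPKM in NDGA8 and 11.9 RPKM in CK5, and PMM comp118301_c0_seq5, the mannose phosphate mutase between MPI and GMPPB, had 24.7 RPKM in NDGA8 and 19.4 RPKM in CK5.

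In the folate list 7 of 44 unigenes were higher (15.9%) and 1 lower (2.27%), both below the 18.1% and 9.78% of all members, and the median log2 ratio was 0.31. The called ones were weakly expressed, none above 2.1 RPKM in either library. The unigene listed as dihydroneopterin triphosphate diphosphatase, comp114039_c2_seq1, matches nudix hydrolase 1 and had 2.08 RPKM in NDGA8 (83 reads) and 0.33 RPKM in CK5 (15 reads). It was 6.37-fold higher (3.65 to 11.9). The better expressed folate unigenes were not called. GGH comp109108_c0_seq11, a hydrolase that shortens polyglutamate tails, had 28.0 RPKM in NDGA8 and 30.01 RPKM in CK5, and folylpolyglutamate synthase comp117056_c0_seq14, which lengthens them, had 13.4 RPKM in NDGA8 and 10.6 RPKM in CK5.

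In chlorophyll breakdown 2 of 16 unigenes were higher (12.5%) and 1 lower (6.25%), both below the shares of all members, with a median log2 ratio of −0.07. Chlorophyll(ide) b reductase comp108054_c0_seq2, which starts the loss of chlorophyll b, had 3.22 RPKM in NDGA8 (146 reads) and 1.53 RPKM in CK5 (80 reads), a 2.10-fold rise (1.59 to 2.80). The best expressed unigene of this enzyme, comp109663_c0_seq2, had 8.48 RPKM in NDGA8 and 5.77 RPKM in CK5 (1.47-fold, 1.33 to 1.62), short of the rule. PAO comp106745_c0_seq2, which opens the chlorophyll ring, had 10.6 RPKM in NDGA8 and 11.6 RPKM in CK5 (1.09-fold lower, 1.01 to 1.17).

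For unigenes outside these pathways, descriptions came from the deposited table of cleaved transcripts, which named 280 members. Some of the 280 are pathway unigenes counted above, such as 4CL comp106520_c0_seq1. Of these 23 were higher (8.21%) and 11 lower (3.93%) in NDGA8, both below the 18.1% and 9.78% of all members, but 14 higher and 16 lower after rescaling. Histone H2A comp100350_c0_seq8, a core nucleosome protein, had 159 RPKM in NDGA8 and 73.1 RPKM in CK5 (2.18-fold higher, 2.11 to 2.25). It was also above CK8 (98.7 RPKM) and far above ABA8 (30.2 RPKM). Homocysteine methyltransferase comp107882_c0_seq12, which makes methionine, had 108 RPKM in NDGA8 and 60.9 RPKM in CK5 (1.77-fold, 1.72 to 1.82). Cystathionine gamma-synthase comp114088_c0_seq3, which acts earlier in methionine synthesis, was lower instead, with 93.5 RPKM in NDGA8 and 143 RPKM in CK5 (1.53-fold, 1.48 to 1.58).

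The largest described rise outside the pathways at 10 RPKM or more was that of comp118758_c0_seq7, described as glycogen synthase kinase 3 beta. It had 13.2 RPKM in NDGA8 and 4.14 RPKM in CK5 (3.19-fold, 2.88 to 3.55), and 0.89 RPKM in CK0 and 9.54 RPKM in CK8. The largest such fall was that of comp103395_c0_seq1, a ubiquitin-conjugating enzyme E2 I, with 4.77 RPKM in NDGA8 and 13.2 RPKM in CK5 (2.77-fold lower, 2.34 to 3.31). No other library was above 9 RPKM or below 7 RPKM for it, so both NDGA8 and CK5 stood at the ends of its range. Phospholipase D comp99291_c0_seq4, which releases phosphatidic acid from membrane lipids, had 3.66 RPKM in NDGA8 and 7.60 RPKM in CK5 (2.08-fold lower, 1.74 to 2.50). Another, better expressed phospholipase D unigene, comp100305_c0_seq3, was not called, at 11.1 RPKM in NDGA8 and 9.80 RPKM in CK5. Of the hormone, cell wall, sugar and stress lists, only those for ethylene, photosynthesis, heat shock, ribosomal proteins and histones had a described member. Beside H2A none of their other 10 members was called.

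To ask whether NDGA8 was ahead of CK5 or behind it on the control's course, sets were taken from CK8 and CK0 alone, 2 libraries that do not enter the comparison. Of 6659 unigenes at least 2-fold higher in CK8 than in CK0, 3800 were members, and of these 1210 (31.8%) were higher in NDGA8 than in CK5 and 619 (16.3%) lower, against 18.1% and 9.78% of all members, with a median log2 ratio of 0.16. Of 9433 unigenes at least 2-fold lower in CK8, 6505 were members, and of these 839 (12.9%) were lower and 1486 (22.8%) higher, at a median of 0.14. Both sets thus held more calls in each direction than all members did. Their medians were above the 0.11 of all members, but with sets of at least 4-fold the medians were 0.10 for the raised and 0.06 for the lowered set, both below it. After rescaling 1107 of the raised set were higher (29.1%) and 727 lower (19.1%). Of the lowered set 1283 were higher (19.7%) and 998 lower (15.3%), against 15.3% and 11.5% of all members. With at least 5 RPKM required, the raised set still had more higher (414, 23.8%) than lower (310, 17.8%). The lowered set had 216 higher (11.5%) and 260 lower (13.8%), against 8.31% and 6.53% of all members at this minimum.

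With the sets taken from ABA8 and CK0, the raised and the lowered set differed in balance. Of the raised set's 5024 members 968 were higher in NDGA8 and 991 lower (median −0.04), while of the 12684 members lowered in ABA8 3037 were higher and 992 lower (median 0.19). These shares were 19.3% higher and 19.7% lower for the raised set and 23.9% and 7.82% for the lowered set, against 18.1% and 9.78% of all members. After rescaling, 855 of the 5024 in the raised set were higher and 1151 lower (median −0.12). Of the 12684 in the lowered set 2590 were higher and 1216 lower (median 0.11). Among all members 15.3% were higher and 11.5% lower after rescaling (median 0.03).

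The called unigenes were then followed in comparisons that share no library with NDGA8 and CK5. Among all members, NDGA5 was higher than ABA5 for 16.5% and lower for 13.9%. Among those higher in NDGA8 than in CK5, the shares were 24.7% and 11.6%, and among those lower in NDGA8 they were 15.2% and 30.4%. The 2185 unigenes higher in both made up 24.7% of those higher in NDGA8 and 27.2% of the members higher in NDGA5. This comparison was added after the data were seen. In ABA8 against CK8, unigenes higher in NDGA8 were lower in 40.6% and higher in 12.9%, against 29.4% and 14.1% of all members. Those lower in NDGA8 were lower in ABA8 in 19.4% and higher in 25.7%.

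In NDGA5 against CK0 the unigenes lower in NDGA8 were higher in 26.5% and lower in 14.0%, against 12.6% and 19.3% of all members, and those higher in NDGA8 were lower in 29.9% and higher in 11.1%. In ABA8 against ABA5, where 7.54% of all members were higher and 23.1% lower, unigenes higher in NDGA8 were higher in 14.1% and lower in 18.1%, and those lower in NDGA8 were higher in 8.06% and lower in 34.7%. The 2 sets differed least in CK8 against CK0, where 14.8% of all members were higher and 25.4% lower. There 21.3% of the unigenes higher in NDGA8 were higher and 27.2% lower, and of those lower in NDGA8 19.0% were higher and 25.0% lower. These shares were not matched on level, and unigenes of a component share reads, so they are given without a test.

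**Figure D5:**
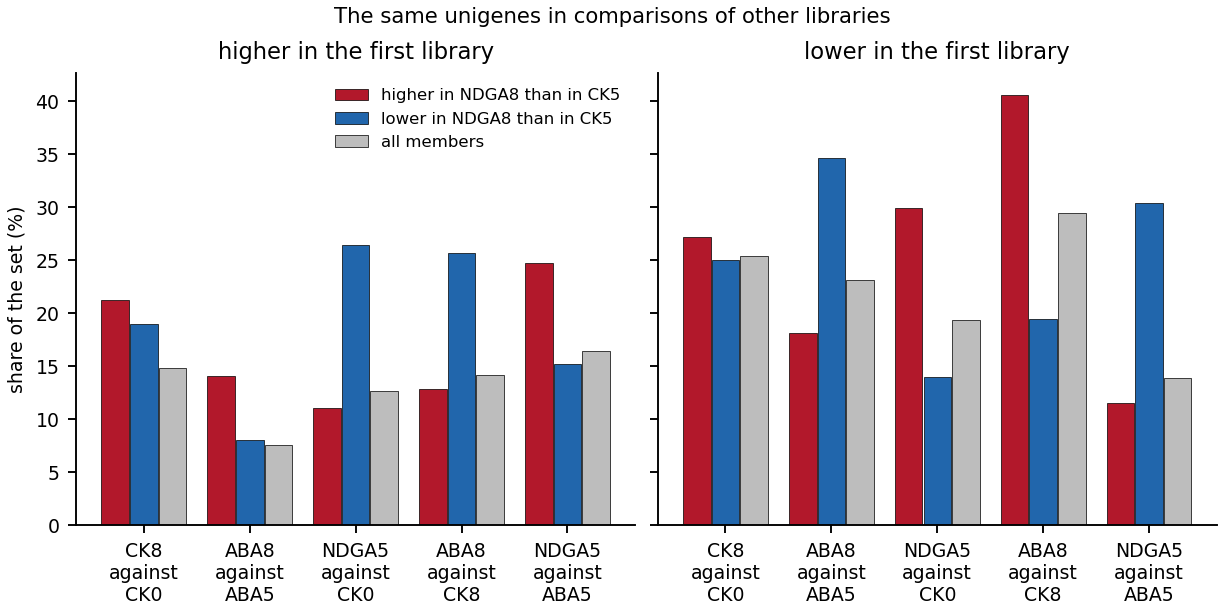
Bars give the share (y axis, %) of unigenes higher in NDGA8 than in CK5, lower in NDGA8, and of all members, that were higher (left) or lower (right) in the first library of comparisons without NDGA8 and CK5 (x axis). The first 2 sets part most in NDGA5 against CK0 among the higher shares (11.1% and 26.5%) and in ABA8 against CK8 among the lower ones (40.6% and 19.4%), and least in CK8 against CK0.

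Harvest day was shared by the libraries as well as treatment. For 235 members (0.48%) every day 8 library stood at least 1.5-fold above every day 5 library, whatever the injection. For 290 members (0.59%) every day 5 library stood at least 1.5-fold above every day 8 library. CHI comp105294_c1_seq1, described above, is one of the 235, and comp99476_c0_seq1, which carries no description, is one of the 290. It had 50.49 RPKM in NDGA8 and 285 RPKM in CK5, 33.5 and 85.8 RPKM in CK8 and ABA8, and 222 and 271 RPKM in NDGA5 and ABA5. These counts were made after the data were seen.

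The largest differences of all fell on unigenes with no description. The largest rise at 10 RPKM or more was comp121608_c0_seq1, with 28.5 RPKM in NDGA8 (361 reads) and no read in CK5, at least 139-fold higher against a floor of 3 reads in CK5 (lower 95% counting limit 112-fold). The largest fall was comp99556_c0_seq2, with 0.11 RPKM in NDGA8 (4 reads) and 50.4 RPKM in CK5 (2086 reads), 453-fold lower (177 to 1663). At the edge of the membership rule, comp103595_c1_seq14 with 1.00 RPKM in NDGA8 and 0.75 RPKM in CK5 was just inside it. Just outside was comp110587_c0_seq4, with 0.9999 RPKM in NDGA8 and 0.87 RPKM in CK5.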

How the data were processed

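RNA-seq of strawberry receptacles was done in 7 libraries, 1 pooled library per condition. The authors filtered 100 bp paired-end reads, assembled them with Trinity and TGICL, and deposited RPKM per unigene. The sources used here name neither tool versions nor the read counter. Multiplying RPKM by unigene length gave whole reads for 100% of values (tolerance 0.02 reads), and so the read totals, and 1 read on a kilobase was worth 0.0186 RPKM in NDGA8 and 0.0162 RPKM in CK5. The deposited table also holds p-value and FDR columns of the authors' chi-square tests, which were not used. Blank cells were read as 0 (80 members in NDGA8 and 8 in CK5). No unigene blank in NDGA8 had reads in CK8 or ABA8, and none blank in CK5 had reads in CK0 or CK8. Blank cells of those libraries also counted as 0 in this check. ABA8 had as many blank cells as NDGA8 (5375 each), so its part may have been fixed in advance.

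The ratio of RPKM + 0.1 had to reach 1.5-fold for a call. Printed folds of unigenes are plain ratios of RPKM. Exact (Clopper-Pearson) 95% intervals were taken from read counts and hold for counting error alone. Pathway lists and nr matches were read from the authors' supplementary table, and descriptions from the deposited table of cleaved transcripts, whose counts were not used, nor was the small RNA table. The members and lists were chosen with earlier results of these data known. Named unigenes were, per enzyme, the best expressed and the best expressed called one, those of the primer table, the 10 largest rises and falls with a description and at least 10 RPKM, the 2 largest without one, and the 2 at the edge of the membership rule. Other named unigenes were chosen after their values were seen. Alternatives were other pseudocounts, minima and folds, rescaling, sums per component, a chi-square test on reads, and other ripening sets. The procedure was tested on simulated data. Tools were scipy 1.17.1 for intervals, pandas 2.3.3 and numpy 2.4.6 under Python 3.11.15, with matplotlib 3.10.9 for plots.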

Additional observations from a re-analysis of the deposited data

How the results depend on the processing

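With 1 library per condition no replicate could be left out. No paired analysis was possible because each condition had a single library. The counts of unigenes higher and lower in NDGA8 stayed within 1.5 times under a pseudocount of 0.01 RPKM, both rescalings and without the sets present in some libraries only (an alternative chosen after seeing the data; 8791 and 4721). They moved to 5152 (10.6%) and 3045 (6.24%) with a pseudocount of 1 RPKM, and to 4008 (8.21%) and 2237 (4.58%) at 2-fold. By chi-square they were 18102 (37.1%) and 10091 (20.7%). Other settings also changed the number counted. With no minimum, 32325 (31.5%) and 18721 (18.3%) of 102518 unigenes were called. With a minimum of 5 RPKM, 1851 (8.31%) and 1456 (6.53%) of 22282 were called. Summed per component, 4423 (17.6%) and 2430 (9.67%) of 25129 were called, shares close to those by unigene. More were higher than lower each time, 64.9% of the calls as reported, 57.1% after rescaling by the median and 56.0% at 5 RPKM.

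Shares of all members at the same settings stand in the paragraph above. Of the unigenes at least 2-fold higher in CK8 than in CK0, 2388 (37.7%) were higher and 1159 (18.3%) lower in NDGA8 with no minimum. The counts were 414 (23.8%) and 310 (17.8%) at 5 RPKM, and 728 (19.2%) and 313 (8.24%) at 2-fold. Per component they were 627 (33.9%) and 327 (17.7%). For a set of 4-fold they were 398 (37.1%) and 268 (25.0%), against 18.1% and 9.78% of all members. With the set of ABA8 against CK0 968 (19.3%) were higher and 991 (19.7%) lower, a near equal split. Of those lower in CK8, 800 (12.3%) were higher and 542 (8.33%) lower with a pseudocount of 1 RPKM, and 2421 (26.3%) and 1385 (15.1%) with no minimum. At 5 RPKM, where the balance turned, the counts were 216 (11.5%) and 260 (13.8%). They were 662 (10.2%) and 410 (6.30%) at 2-fold, and 810 (23.8%) and 475 (14.0%) per component. A set of 4-fold gave 398 (26.6%) and 366 (24.4%), and the set of ABA8 against CK0 3037 (23.9%) and 992 (7.82%). The cause was not tested.

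Of 74 called pathway unigenes, rescaling by the median ended 10 calls, a pseudocount of 1 RPKM ended 25 and a 2-fold rule 51, and none changed direction. Below 2 RPKM a value rests on few reads unless the unigene is long, and at any depth 1 pooled library cannot show the spread between fruits.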

Other observations

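Part of the 16-fold difference lay in unigenes that were present in some libraries and near 0 in others. In a set of 48 unigenes from 37 components, CK0, CK8, NDGA5 and NDGA8 each had at least 1 RPKM and more than 8 times the level of CK5, ABA5 and ABA8. The median level of the set was 3.15 RPKM in NDGA8 and 0 in CK5, with 6.19 in CK0, 8.09 in CK8 and 2.05 in NDGA5, and 31 of the 48 had no read in CK5. An example is comp89427_c0_seq1, with 60.2 RPKM in NDGA8 (7624 reads) and 0.33 RPKM in CK5 (48 reads), and 147, 133 and 49.7 RPKM in CK0, CK8 and NDGA5. Of the 116 unigenes at least 16-fold higher in NDGA8, 35 belonged to this set.

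A second set of 54 unigenes from 37 components was present in CK0 and CK5 and near 0 in the other 5 libraries. Its median was 0.13 RPKM in NDGA8 and 4.51 RPKM in CK5, with 16.1 RPKM in CK0, and it held 35 of the 58 unigenes at least 16-fold lower in NDGA8. One of them, comp106816_c0_seq3, had 0.08 RPKM in NDGA8 and 23.2 RPKM in CK5, a ratio of 299-fold lower with a counting interval of 82.6 to 2478, from 2 reads in NDGA8 and 690 in CK5. A further 17 of the 116 reached 1 RPKM in NDGA8 and CK8 only, and 23 in NDGA8 only. Neither set carries a described unigene in the tables used, and both were defined after the data were seen. Both definitions use the NDGA8 and CK5 levels themselves, so their overlap with the 16-fold unigenes was partly fixed in advance.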
